A study of Mus musculus with 6 samples.

Results

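Thyroid RNA of mice at postnatal day 15 was searched for 8 genes of Schwann cell myelin and peripheral nerve, Mbp, Pmp22, Mag, Prx, Sox10, S100b, Ncam1 and L1cam. All probe sets that the annotation of the array assigned to 1 of these genes alone were taken. This gave 24 of the 45101 probe sets, for 7 of the 18194 genes named on the array. Mbp had 8 probe sets, Ncam1 7, Sox10 3, S100b 2, L1cam 2, Pmp22 1 and Mag 1. The signal of Prx, which encodes periaxin, was not analysed here. Of the 24 probe sets, 15 passed the filter on dim signals and were tested, and the other 9 are given by their signals only.

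The samples were 3 thyroids labelled heterozygous and 3 labelled knockout for Slc26a4, the gene of the anion exchanger pendrin, each hybridised to an Affymetrix mouse expression array. The controls therefore carried 1 lost allele as well. Each array carries the number its title gives it: 1, 3 and 5 are heterozygous, and 2, 4 and 6 are knockout. The labels give neither the strain, the sex nor the number of animals behind an RNA, nor do they say that arrays came from separate animals. The p-values thus reflect only the variation among these 6 samples, part of which may be technical. The tissue was microdissected whole gland, in which fewer cells of a type and less RNA per cell cannot be told apart.

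Schwann cells ensheath the axons of peripheral nerves, and some of them wrap a single axon in compact myelin. Their identity and their myelin genes depend on the transcription factor Sox10, which acts with Egr2 when myelination begins. Thyroid hormone is required for normal myelination, and the nerves that run in and along the thyroid bring their own Schwann cells into a dissected gland. The comparison of knockout with heterozygous glands asks whether nerve transcripts differ when pendrin is lost. Values of single arrays are given as well, because the amount of nerve in a dissection can vary.

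The thyrocyte genes that define the tissue were present on all 6 arrays, with Tg between 11794 and 13805. Array medians lay between 78.1 and 103.6, and the brightest value of the bacterial control probe sets, 22.9, is called background below. Several libraries stood apart in markers of neighbouring tissues. Pth, the parathyroid hormone gene, read 165.2 on heterozygous 1 and 2788 on knockout 6, against 9702 to 11058 on the other 4. Dntt, an enzyme of developing lymphocytes, read 1779 on knockout 4 and at most 24.5 on the others (1449757_x_at). The fast muscle myosin Myh4 read 6311 on heterozygous 1 and 5888 on knockout 2, against 198.5 on knockout 6. The ratio of the 3' to the 5' control probe sets of Gapdh, a sign of RNA integrity, lay between 1.32 and 1.47. The same ratio for actin was larger, between 2.70 and 3.21, and highest on heterozygous 5 (3.21) and knockout 2 (3.13).

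Promoter windows show the regulatory sequence at the start sites of some members and of Ugt8a, a myelin lipid gene whose signal ranged with that of Mbp. They are the 250 bases before a RefSeq start (assembly GRCm38.p6), written 5′ to 3′ on the strand of the gene. Pmp22 has 4 such windows, of which the outermost pair is shown because its single probe set cannot tell transcripts of different starts apart. L1cam is shown as the member whose genotypes did not overlap, and Mag as the member with a match to a SOX core motif. Capitals mark a match to the SOX core ACAAAG on either strand.
Pmp22, first start, chr11:63128732-63128981, plus strand: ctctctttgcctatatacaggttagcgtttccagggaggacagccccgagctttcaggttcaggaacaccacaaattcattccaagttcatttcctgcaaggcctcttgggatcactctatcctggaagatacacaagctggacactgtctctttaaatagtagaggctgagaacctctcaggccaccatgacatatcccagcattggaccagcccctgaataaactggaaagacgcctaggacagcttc
Pmp22, last start, chr11:63132553-63132802, plus strand: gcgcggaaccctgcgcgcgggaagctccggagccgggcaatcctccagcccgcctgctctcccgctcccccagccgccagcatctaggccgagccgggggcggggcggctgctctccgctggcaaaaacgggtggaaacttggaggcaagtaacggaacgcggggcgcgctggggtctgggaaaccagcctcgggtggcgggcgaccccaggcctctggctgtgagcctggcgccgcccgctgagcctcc
Mag, chr7:30914923-30915172, minus strand: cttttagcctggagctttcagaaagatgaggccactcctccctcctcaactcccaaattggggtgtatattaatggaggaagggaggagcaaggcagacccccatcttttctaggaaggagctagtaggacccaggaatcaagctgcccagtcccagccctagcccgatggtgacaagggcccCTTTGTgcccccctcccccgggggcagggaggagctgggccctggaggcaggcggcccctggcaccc
L1cam, chrX:73880835-73881084, minus strand: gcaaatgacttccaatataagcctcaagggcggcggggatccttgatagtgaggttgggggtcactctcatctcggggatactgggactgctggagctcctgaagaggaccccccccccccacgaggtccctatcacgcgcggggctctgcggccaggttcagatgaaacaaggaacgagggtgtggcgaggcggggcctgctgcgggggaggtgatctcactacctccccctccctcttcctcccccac
Ugt8a, chr3:125938653-125938902, minus strand: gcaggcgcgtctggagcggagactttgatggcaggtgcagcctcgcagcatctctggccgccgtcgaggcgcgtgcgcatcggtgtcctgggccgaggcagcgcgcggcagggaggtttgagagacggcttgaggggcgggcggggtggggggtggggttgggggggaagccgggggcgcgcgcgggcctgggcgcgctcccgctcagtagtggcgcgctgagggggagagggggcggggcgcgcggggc

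The motifs ACAAAG and ACAATG, cores recognised by SOX proteins, and GTGGGCG, a core recognised by EGR proteins, were searched on both strands. The 11 member windows came from 5 members, Pmp22, Mag, Prx, S100b and L1cam, and none was of Mbp, Sox10 or Ncam1. Of these 11, 2 overlapping windows of Mag held ACAAAG, as its reverse complement CTTTGT, and 0 held ACAATG or GTGGGCG. Among all 32851 windows of this length, 16.5% held ACAAAG, 10.7% ACAATG and 7.02% GTGGGCG. The Ugt8a window held none of the 3. These letters describe the windows and say nothing of binding.

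The strongest pattern among the members was a difference between single arrays in Mbp, which encodes myelin basic protein, the protein that holds the cytoplasmic faces of compact myelin together. By its brightest probe set, 1456228_x_at, Mbp read 3793 on heterozygous 1, 499.0 on heterozygous 3 and 1635 on heterozygous 5, and 1329 on knockout 2, 3384 on knockout 4 and 2589.6 on knockout 6. Heterozygous 1 and knockouts 4 and 6 were high, heterozygous 3 was lowest, and the genotypes overlapped over nearly their whole range. The highest array stood 7.60-fold above the lowest. On the log2 scale used for the test this range of 2.89 was wider than that of 99.6% of the 27022 probe sets tested.

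**Figure D1:**
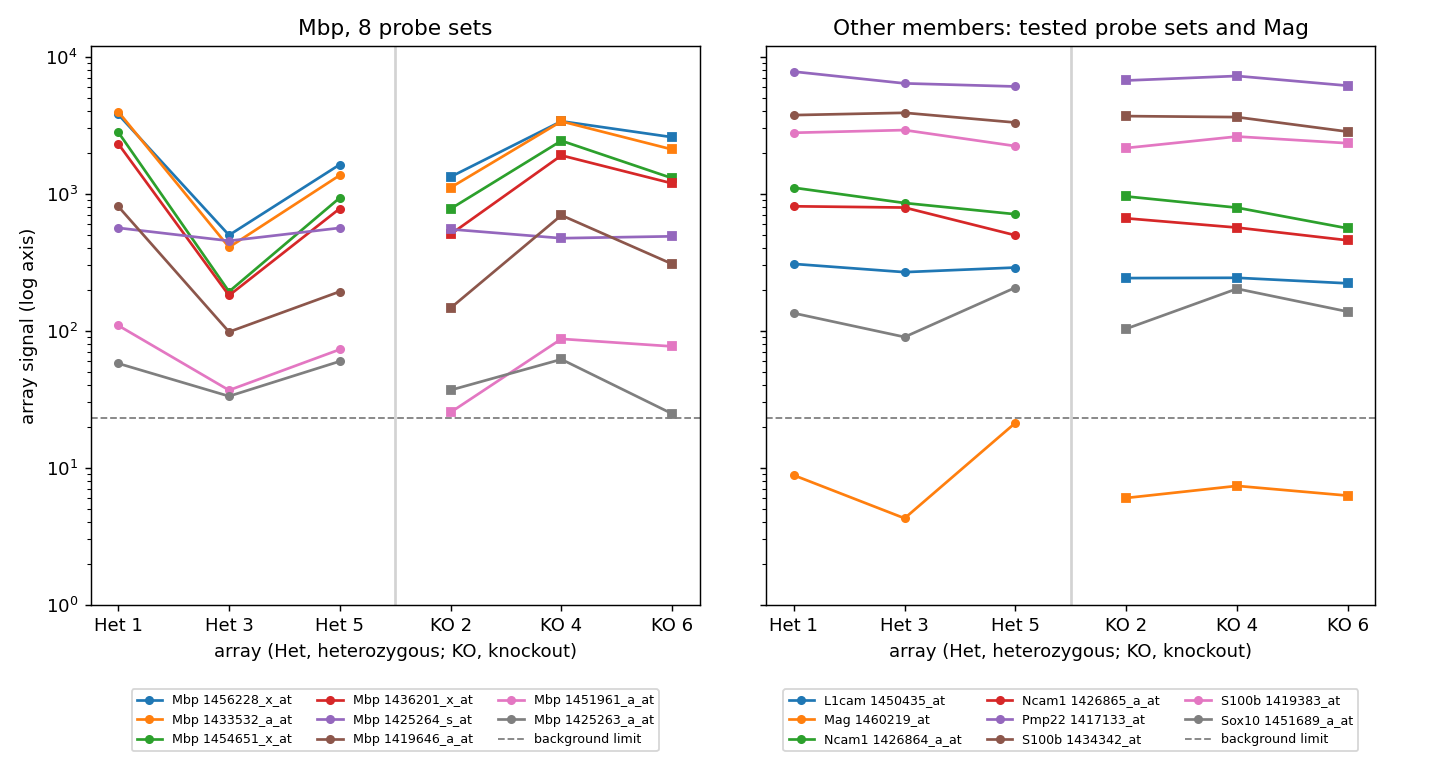
Array signal (log axis) of the 8 Mbp probe sets, the other tested member probe sets and Mag on the 3 heterozygous (circles) and 3 knockout arrays (squares), with Mbp on the left and the other members on the right. Each point is 1 array, lines only join values of 1 probe set, and the dashed line is the background of 22.9. 5 of the 8 Mbp probe sets share 1 order of the arrays, from heterozygous 1 down to heterozygous 3, while 1425264_s_at is nearly level and Mag lies under background.

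The same order of arrays appeared in 5 of the 8 Mbp probe sets. Probe set 1433532_a_at read 3975, 407.2 and 1366 on heterozygous 1, 3 and 5 and 1109, 3379 and 2107 on knockouts 2, 4 and 6. Probe set 1454651_x_at ranged from 193.3 to 2818, a 14.6-fold step, and 1436201_x_at from 181.0 to 2319. Probe set 1419646_a_at ranged from 98.2 to 808.8. That order was found in 27 of all probe sets tested, or 0.0999%, these 5 among them. It was taken from the brightest Mbp probe set after its values were seen, so that probe set shares it by definition. Probe sets of 1 gene can share target sequence, so these 5 are not independent measurements.

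The other 3 Mbp probe sets differed from these. Probe set 1425264_s_at was nearly level, at 563.7, 453.4 and 563.3 on heterozygous 1, 3 and 5 and 551.0, 474.1 and 489.3 on knockouts 2, 4 and 6, and its log2 range of 0.30 was narrower than that of most probe sets tested, at the 17.97th percentile. Probe set 1451961_a_at lay between 25.4 on knockout 2 and 109.4 on heterozygous 1. Probe set 1425263_a_at lay between 24.8 on knockout 6 and 61.9 on knockout 4. The Mbp gene also gives rise to longer transcripts, known as Golli, from a start of their own, and these are made in lymphoid cells and neurons as well. The annotation does not say which transcripts a probe set detects.

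Sox10, the transcription factor of the Schwann cell lineage and of melanocytes, varied less than Mbp. Its tested probe set, 1451689_a_at, read 134.5, 90.1 and 206.7 on heterozygous 1, 3 and 5 and 103.4, 202.7 and 138.0 on knockouts 2, 4 and 6. Heterozygous 3 was lowest here too, but heterozygous 5 was highest, where Mbp was intermediate. Its other probe sets were dim, between 31.8 and 46.1 for 1424985_a_at and between 2.22 and 21.0 for 1425369_a_at, which lay under background. Probe set 1424985_a_at was lowest on heterozygous 5, where the tested one was highest, so the place of that array differed between Sox10 probe sets. The melanocyte gene Dct read 158.9 on heterozygous 3 and 26.2 on knockout 6, and the pigment enzyme gene Tyr read 29.8 on heterozygous 5 and lay under background on the other 5 arrays; their part in the Sox10 values was not tested.

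Mag, the myelin-associated glycoprotein of the membrane facing the axon, was not above background on any array. Its single probe set, 1460219_at, read 8.82, 4.28 and 21.3 on heterozygous 1, 3 and 5 and 6.02, 7.38 and 6.27 on knockouts 2, 4 and 6. A difference between genotypes was not detectable at this signal.

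Pmp22, a tetraspan protein of compact myelin that fibroblasts and epithelia also make, was bright and nearly level. Probe set 1417133_at read 7792, 6395 and 6070.0 on heterozygous 1, 3 and 5 and 6713, 7241 and 6152 on knockouts 2, 4 and 6. Heterozygous 1 was highest and heterozygous 5 lowest, a step of 1.28-fold, and the groups overlapped.

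S100b, a calcium-binding protein of glia that cartilage and fat cells also make, was bright as well. Probe set 1434342_at read 3753, 3900.1 and 3313 on heterozygous 1, 3 and 5 and 3689.9, 3629 and 2842 on knockouts 2, 4 and 6. It was highest on heterozygous 3, the array where Mbp was lowest, and lowest on knockout 6. Probe set 1419383_at ranged from 2158 on knockout 2 to 2918 on heterozygous 3. Of the 10 listed cartilage genes 5 were tested, with a summed signal of 4927 to 5420 on the heterozygous and 4358 to 6095 on the knockout arrays. Most of it came from Sox9, a transcription factor that other tissues also make, at 2592 to 4046, and Col9a1, a cartilage collagen chain, at 1174 to 2133. Col9a1 was highest on heterozygous 3, as S100b was, but the list as a whole was not. Its summed signal was highest on knockout 2, at 6095, and lowest on knockout 6, at 4358, with 5138 on heterozygous 3. Its median centred value was 0.16 on knockout 2 and 0.12 on both heterozygous 3 and knockout 6. Matn1 (at most 21.8) and Matn3 (at most 10.2) were under background on all arrays, and Acan read at most 44.6. The fat gene Adipoq read between 4666 and 7281. The part of cartilage and fat in the S100b values was not tested.

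Ncam1, the neural cell adhesion molecule, marks Schwann cells that do not form myelin, neurons, neuroendocrine cells and young muscle fibres. Probe set 1426864_a_at read 1108, 856.7 and 709.6 on heterozygous 1, 3 and 5 and 957.0, 792.2 and 559.6 on knockouts 2, 4 and 6. Heterozygous 1 and knockout 2 were high, knockout 6 was lowest, and the groups overlapped. Probe set 1426865_a_at read 810.6, 793.7 and 498.0 and then 662.2, 566.9 and 457.6 on the same arrays. The other 5 Ncam1 probe sets were not tested, and 3 of these stayed at or under background on all arrays.

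Some genes of muscle and endocrine cells were high and low on the same arrays as Ncam1. Myh4 was high on heterozygous 1 and knockout 2 and lowest on knockout 6, as given above. Scg2, a granin of secretory granules, read 5259, 3450.3 and 2492 on heterozygous 1, 3 and 5 and 4215, 2597 and 1845 on knockouts 2, 4 and 6. Snap25, a synaptic and neuroendocrine membrane fusion protein, read 1301, 848.2 and 685.3 and then 1103, 548.2 and 433.5. Over the whole muscle list, 12 of 14 genes were tested, and their summed signal ran from 21243 to 35585 on the heterozygous arrays and from 6788 to 33514 on the knockout arrays. The endocrine list as a whole did not have the order of Ncam1: its 6 tested genes summed to 9174 on heterozygous 1, where Ncam1 was highest, and to 21416 and 19702 on heterozygous 3 and 5, and to 23111, 20496 and 5979 on knockouts 2, 4 and 6. The part of these cells in the Ncam1 values was not tested.

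L1cam, an adhesion molecule of axons and of Schwann cells without myelin, was the 1 tested member probe set whose genotypes did not overlap. Probe set 1450435_at read 307.6, 268.0 and 289.6 on heterozygous 1, 3 and 5 and 242.5, 243.7 and 222.0 on knockouts 2, 4 and 6. All 3 knockout arrays lay below all 3 heterozygous ones. Across the array, 3.68% of the tested probe sets had groups that did not overlap, 2.04% with knockout lower and 1.64% with knockout higher, and read against these shares 1 member of 15 is not a result about the members. The other L1cam probe set, 1421958_at, read between 1.73 and 23.6 and was not tested. The dim Ncam1 probe set 1450437_a_at, also not tested, had no overlap either, at 34.5, 34.9 and 44.3 on heterozygous 1, 3 and 5 and 32.3, 26.0 and 30.9 on knockouts 2, 4 and 6.

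No member passed the test between knockout and heterozygous glands. Of the 15 tested member probe sets, 0 passed at an adjusted p of 0.05 (limma, Benjamini-Hochberg over all 27022), and 0 had an unadjusted p under 0.05. Over all probe sets tested 0% passed, and 0.511% had an unadjusted p under 0.05. The log2 difference, knockout minus heterozygous, was above 0 for 6 member probe sets and below 0 for 9, with a median of -0.06, against 49.3% above 0, 50.7% below 0 and a median of -0.0021 over all tested.

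**Figure D2:**
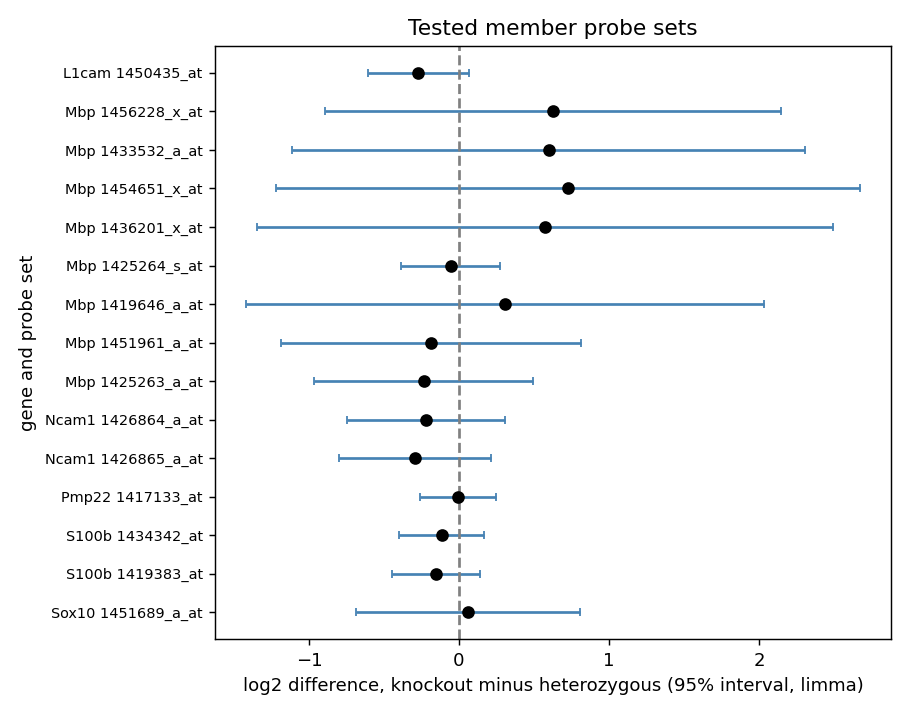
Log2 difference, knockout minus heterozygous, of the 15 tested member probe sets (points) with the 95% interval from limma (bars); the dashed line is no difference. Every interval includes 0, and those of 5 Mbp probe sets are the widest.

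The interval of each difference shows what these 6 arrays could resolve. For Pmp22 the means were 6752 ± 915 in heterozygous and 6702 ± 545 in knockout glands (SD, n = 3), and the log2 difference was -0.0054, with 95% bounds of -0.26 and 0.25. For S100b they were 3655 ± 305 and 3387 ± 473, and the log2 difference was -0.12, with bounds of -0.40 and 0.17. For L1cam they were 288.4 ± 19.8 and 236.1 ± 12.2, and the log2 difference was -0.27 ± 0.15 (SE), with bounds of -0.61 and 0.07 (limma, unadjusted p = 0.102, adjusted p = 1.0).

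For the more variable members the intervals were wide. Ncam1 read 891.3 ± 201.4 and 769.6 ± 199.7 (SD, n = 3), with an interval of -0.74 to 0.31 on the log2 scale. Sox10 read 143.8 ± 58.9 and 148.0 ± 50.4, with an interval of -0.69 to 0.81, and its log2 difference of 0.06 turned to -0.20 without heterozygous 3 and to -0.17 without knockout 4. Mbp read 1976 ± 1673 and 2434 ± 1036 by 1456228_x_at, and the log2 difference was 0.63, with bounds of -0.90 and 2.15 (limma, adjusted p = 1.0). Its difference was -0.13 without heterozygous 3, 1.31 without heterozygous 1, 1.01 without knockout 2 and 0.34 without knockout 4, so its size and sign depended on single arrays. The level probe set 1425264_s_at gave -0.06, with an interval of -0.39 to 0.28.

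Further myelin genes, from a list that held none of the members, showed the array pattern of Mbp in part. Drp2, a dystrophin-related protein that binds periaxin at the outer Schwann cell membrane, read 1057, 76.7 and 239.1 on heterozygous 1, 3 and 5 and 281.5, 725.2 and 524.4 on knockouts 2, 4 and 6, and its dimmer tested probe set ranged from 26.8 on heterozygous 3 to 106.8 on heterozygous 1. Ugt8a, which makes the myelin lipid galactosylceramide, read 765.9, 38.4 and 68.9 and then 135.8, 496.6 and 192.4. Pmp2, the fatty acid binding protein of peripheral myelin, read 308.1, 3.07 and 23.6 and then 42.6, 87.5 and 47.1. Pmp2 lay above the filter signal of 43.5 only on heterozygous 1 and knockouts 4 and 6. Those arrays carried it into the test, so its order of arrays is weaker evidence of a shared pattern. In all 3 genes heterozygous 1 was highest, knockouts 4 and 6 came next and heterozygous 3 was lowest, and the genotypes overlapped.

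Of the 25 tested genes of that list, 9 had heterozygous 1, knockout 4 and knockout 6 as their 3 highest arrays, against 2.95% of all probe sets tested. This count was chosen after the values of Mbp were seen, and Pmp2 entered it through its high arrays, as given above. Besides Drp2, Ugt8a and Pmp2 they were Fa2h, which hydroxylates the fatty acids of myelin lipids, Pllp, a membrane protein of myelin, Ncmap, a protein of non-compact peripheral myelin, Cdh19, a cadherin of Schwann cells, Dhh, a signal from Schwann cells to the nerve sheath, and Pou3f1, a transcription factor of cells about to myelinate. Fa2h read 162.4, 51.4 and 57.0 on heterozygous 1, 3 and 5 and 57.3, 124.9 and 95.2 on knockouts 2, 4 and 6. Cdh19 read 405.2, 258.4 and 220.2 and then 254.0, 288.2 and 362.0. Pou3f1 had the smallest unadjusted p of the list, at 35.4 ± 6.44 and 61.2 ± 25.8 (SD, n = 3; limma, adjusted p = 1.0). It lay under the filter signal of 43.5 on all arrays but knockouts 4 and 6. Those arrays alone let it into the test and into this count. Its other probe set, 1422068_at, was not tested and went the other way, at 26.0 ± 13.2 and 19.9 ± 21.2.

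**Figure D3:**
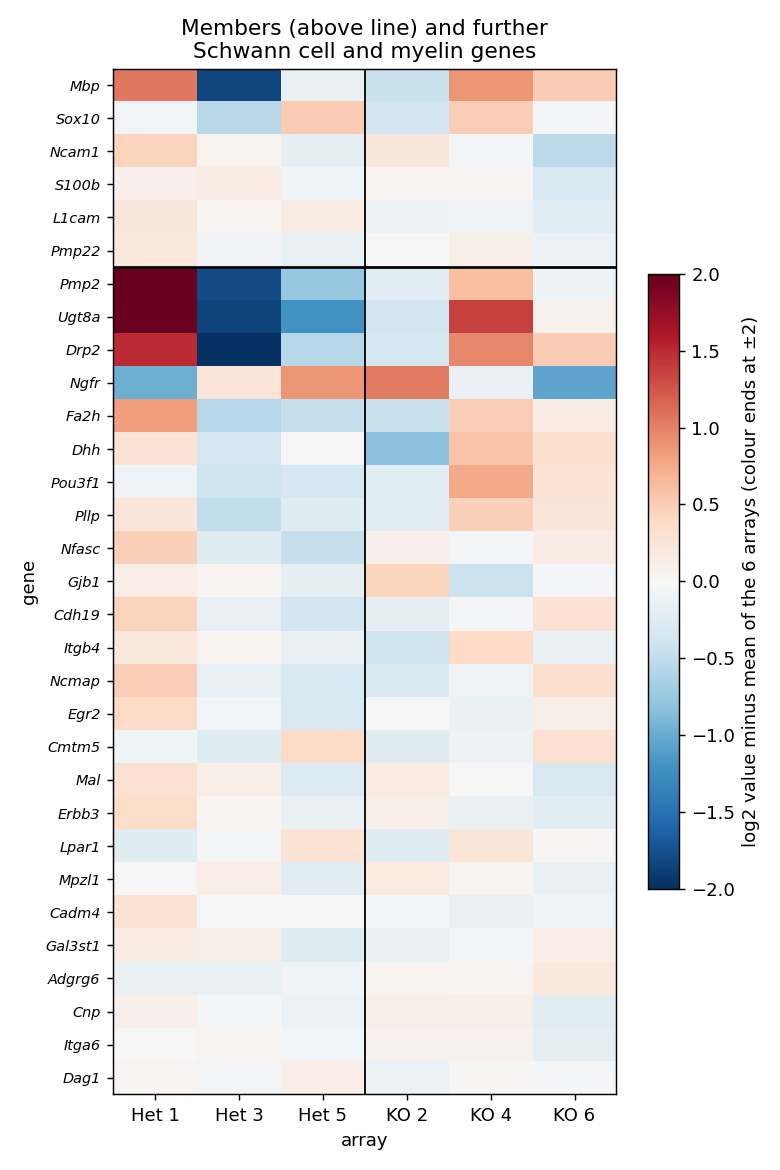
Centred log2 values (value minus the mean of the 6 arrays; red above, blue below, colour ends at ±2) of the 6 tested members, above the line, and of 25 further Schwann cell and myelin genes. Columns are arrays, with heterozygous left of the vertical line. Mbp, Pmp2, Ugt8a and Drp2 are high on heterozygous 1 and knockout 4 and low on heterozygous 3, while most rows below them are pale.

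Other genes of the same list did not range in this way. Egr2, which drives the myelin programme and is also an immediate early gene, read between 339.6 and 562.3. Erbb3, the neuregulin receptor of Schwann cells, which epithelia also make, read between 1767 and 2660.2. Cnp, an enzyme of myelin that other tissues make at lower levels, read between 2931 and 3687, and Mal, a raft protein of myelin and epithelia, between 1757 and 2693. Ngfr, the neurotrophin receptor of Schwann cells without myelin, went another way, at 56.7, 153.4 and 247.2 on heterozygous 1, 3 and 5 and 278.6, 114.6 and 52.3 on knockouts 2, 4 and 6. It was low on heterozygous 1 and knockout 6, where Mbp was high. Gjb1, the connexin of myelin and of liver, read between 668.4 and 1236.

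As a group the further Schwann cell and myelin genes had no side. Of 25 tested, 13 were higher and 12 lower in knockout, with a median log2 difference of 0.0064, and 0 passed (limma, adjusted p; 0 also at an unadjusted p under 0.05). The groups did not overlap for 1 gene with knockout higher and 1 with knockout lower. Over all probe sets tested these shares were 1.64% and 2.04%. The gene with knockout lower was Cadm4, an adhesion molecule of Schwann cells, at 79.0 ± 10.9 and 68.0 ± 2.95 (SD, n = 3; limma, adjusted p = 1.0). The gene with knockout higher was Adgrg6, a receptor needed for the start of myelination, at 227.1 ± 6.01 and 269.6 ± 17.4 (SD, n = 3; limma, adjusted p = 1.0). The list median per array was highest on heterozygous 1, at 0.24, and lowest on heterozygous 5, at -0.22, in log2 units around the mean of the 6 arrays.

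Axon and neuron genes were dim for the most part, and 1 of the 12 tested, Gap43, had the 3 highest arrays of Mbp. Of 28 such genes with a probe set, 12 were tested, 5 higher and 7 lower in knockout, with a median log2 difference of -0.12 and 0 passing (limma, adjusted p; 0 also at an unadjusted p under 0.05). Th, the rate-limiting enzyme of catecholamine synthesis in sympathetic neurons, read at most 2.21 on any array and Chat, the enzyme of acetylcholine synthesis, at most 9.53. The neurofilament gene Nefl read between 7.41 and 67.95, Prph between 11.5 and 36.3 and Tubb3 between 3.63 and 30.4. Dbh, which makes noradrenaline, was above background on 1 array, at 23.03 on knockout 6.

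Among the neuron genes that were bright, Uchl1, a ubiquitin hydrolase of neurons and endocrine cells, read 486.9, 459.8 and 363.4 on heterozygous 1, 3 and 5 and 484.6, 429.2 and 262.3 on knockouts 2, 4 and 6. Gap43, a growth protein of axons and Schwann cells, read 115.3, 89.3 and 100.1 and then 85.6, 174.7 and 139.9, so that heterozygous 1 and knockouts 4 and 6 were its highest arrays. Vip and Ddc had the smallest unadjusted p of this list. Vip, a neuropeptide, read 37.4 ± 37.2 and 68.0 ± 27.8, and Ddc, a decarboxylase of monoamine cells, read 355.4 ± 173.4 and 226.5 ± 131.5 (SD, n = 3; limma, adjusted p = 1.0 for both). The heterozygous mean of Vip lay under the filter signal of 43.5, so its higher knockout values carried it into the test.

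Genes for the lipids of myelin and the partners of the adhesion molecules showed small differences. Of 16 tested lipid and cholesterol synthesis genes, 10 were higher and 6 lower in knockout, with a median log2 difference of 0.02 and 0 passing (limma, adjusted p; 0 also at an unadjusted p under 0.05). Fasn, the fatty acid synthase, which is abundant in fat, read 3782 ± 1338 and 5276 ± 1254, and Scap, the escort of the sterol-sensing transcription factors, read 644.8 ± 38.3 and 744.5 ± 18.5 (SD, n = 3; limma, adjusted p = 1.0 for both). Of 11 tested neuregulin and adhesion genes, 5 were higher and 6 lower, with a median of -0.0055 and 0 passing (limma, adjusted p; by the brightest probe set of each gene, 0 also at an unadjusted p under 0.05). A dimmer tested probe set of Gfra1, a receptor subunit that binds Ncam1, 1421973_at, had an unadjusted p of 0.0193 (limma, adjusted p = 1.0) and no overlap, at 36.9 ± 9.17 and 69.3 ± 9.63 (SD, n = 3), while the brightest Gfra1 probe set overlapped, at 131.6 ± 60.8 and 144.4 ± 38.5. The heterozygous mean of 1421973_at lay under the filter signal of 43.5. Its higher knockout values carried it into the test, so its p and lack of overlap are no evidence of a difference. Lama4, a laminin of vessels and nerve, read 1799 ± 220 and 2107 ± 242, and St8sia2, which adds polysialic acid to Ncam1, read 98.5 ± 19.8 and 71.0 ± 29.4 (SD, n = 3).

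Genes with array patterns nearest to the nerve members were ranked by the mean absolute difference of centred log2 values over the 6 arrays. The rule took the mean profile of Mbp, Mag, Prx and Sox10, of which Mbp and Sox10 had tested probe sets. That profile was 0.50, -1.19 and 0.18 on heterozygous 1, 3 and 5 and -0.42, 0.69 and 0.24 on knockouts 2, 4 and 6. The nearest 8 genes outside the members were Acot11, Ptgr2, Epas1, Rasgrp1, Sbspon, Rac2, Tmem263 and Angpt1, at differences between 0.13 and 0.25. Acot11, an acyl-CoA thioesterase of brown fat, read 172.7, 56.8 and 157.0 and then 118.4, 199.0 and 169.9.

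Set against Mbp alone, a choice made after seeing the data, the nearest gene was Drp2, at a mean difference of 0.21, and Fa2h was among the nearest 8 at 0.42. The others were Ddn, Vat1l, Mlip, Ms4a4c, Acot11 and Sbspon. Ddn, which encodes dendrin, a protein of neurons and kidney podocytes, read 191.5, 0.83 and 39.6 on heterozygous 1, 3 and 5 and 32.8, 200.5 and 107.7 on knockouts 2, 4 and 6.

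Markers of other cell types were set beside the Mbp pattern for each array. The thymus and T cell list, with 4 of its 9 measured genes tested, had a summed signal of 3212 on knockout 4 and between 80.2 and 127.7 on the other 5 arrays. On heterozygous 1, where Mbp was highest, that list stood at 100.4. The muscle list had its highest median on heterozygous 1, at 0.71, and its lowest on knockout 6, at -1.38, both arrays with high Mbp. The fat list ranged from -0.21 on heterozygous 3 to 0.28 on knockout 6, and the fibroblast list from -0.13 on knockout 2 to 0.16 on knockout 4. The endocrine list was lowest on knockout 6, at -0.97, and the melanocyte list was highest on heterozygous 3, at 0.76. None of these lists shared the order of the arrays in Mbp, and their part in the nerve values was not tested.

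Between genotypes, 0 genes of these marker lists passed (limma, adjusted p = 1.0 for every gene named here), and by the brightest probe set of each gene 1 had an unadjusted p under 0.05. That gene was Pi16, a fibroblast protein, at 2325 ± 112 in heterozygous and 2814 ± 280 in knockout glands (SD, n = 3), and Col14a1, a fibril-associated collagen, came next at 1592 ± 262 and 1863 ± 101. Over all probe sets tested 0.511% had an unadjusted p under 0.05 (limma). Pi16 was 1 of 8 tested fibroblast genes, and 1 gene from all these lists is not a result about fibroblasts. Of 12 muscle genes 1 was higher and 11 lower in knockout, with a median log2 difference of -0.61, led by Mylpf at 6425 ± 712 and 4564 ± 2454 and Tnnc2 at 3882 ± 1003 and 2761 ± 1345. The median centred value of the muscle list was 0.64, -0.11 and -1.38 on knockouts 2, 4 and 6. On heterozygous 1, 3 and 5 it was 0.71, 0.06 and 0.09. Of 6 endocrine genes 1 was higher and 5 lower, with Chgb at 1280.5 ± 512 and 885.1 ± 446 and Pcsk1 at 631.7 ± 386 and 391.1 ± 240.3. The endocrine median was 0.84, -0.22 and -0.97 on knockouts 2, 4 and 6, against 0.06, 0.29 and 0.11 on heterozygous 1, 3 and 5. Of 4 melanocyte genes 0 were higher and 4 lower, with Mitf at 1873 ± 52.8 and 1597 ± 248 and Pmel at 76.3 ± 27.6 and 47.7 ± 8.42. The melanocyte median was 0.04, 0.01 and -0.83 on knockouts 2, 4 and 6, against -0.52, 0.76 and 0.47 on heterozygous 1, 3 and 5. Over all probe sets tested 50.7% were lower in knockout. In the muscle, endocrine and melanocyte lists knockout 6 was lowest, and knockout 2 did not lie below all heterozygous arrays. The counts of lower genes therefore do not describe every knockout array. The fat list had 6 genes higher and 2 lower, with Car3 at 8631 ± 817 and 9733 ± 1080.1 and Retn at 180.6 ± 60.1 and 280.4 ± 120.9. All 4 tested thymus genes were higher in knockout, with a median of 1.20, but this rested on knockout 4. Their median centred value was 3.40 there and -0.85 and -0.66 on knockouts 2 and 6. On heterozygous 1, 3 and 5 it was -0.85, -0.47 and -0.49. Cd3g, a part of the T cell receptor complex, read 578 on knockout 4 and at most 28.6 on the others, and Dntt is given above. Both lay under the filter signal of 43.5 outside knockout 4, so that array alone let them into the test and set their direction. Of 5 cartilage genes 2 were higher and 3 lower, with Cnmd at 34.2 ± 9.78 and 70.3 ± 34.2 and Hapln1 at 113.5 ± 38.5 and 99.6 ± 18.3. The heterozygous mean of Cnmd lay under the filter signal of 43.5, so its higher knockout values carried it into the test. Of 7 thyrocyte genes 2 were higher and 5 lower, with Pax8 at 3012 ± 345 and 2725 ± 255 and Cdh16 at 2332 ± 413 and 1998 ± 668.

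**Figure D4:**
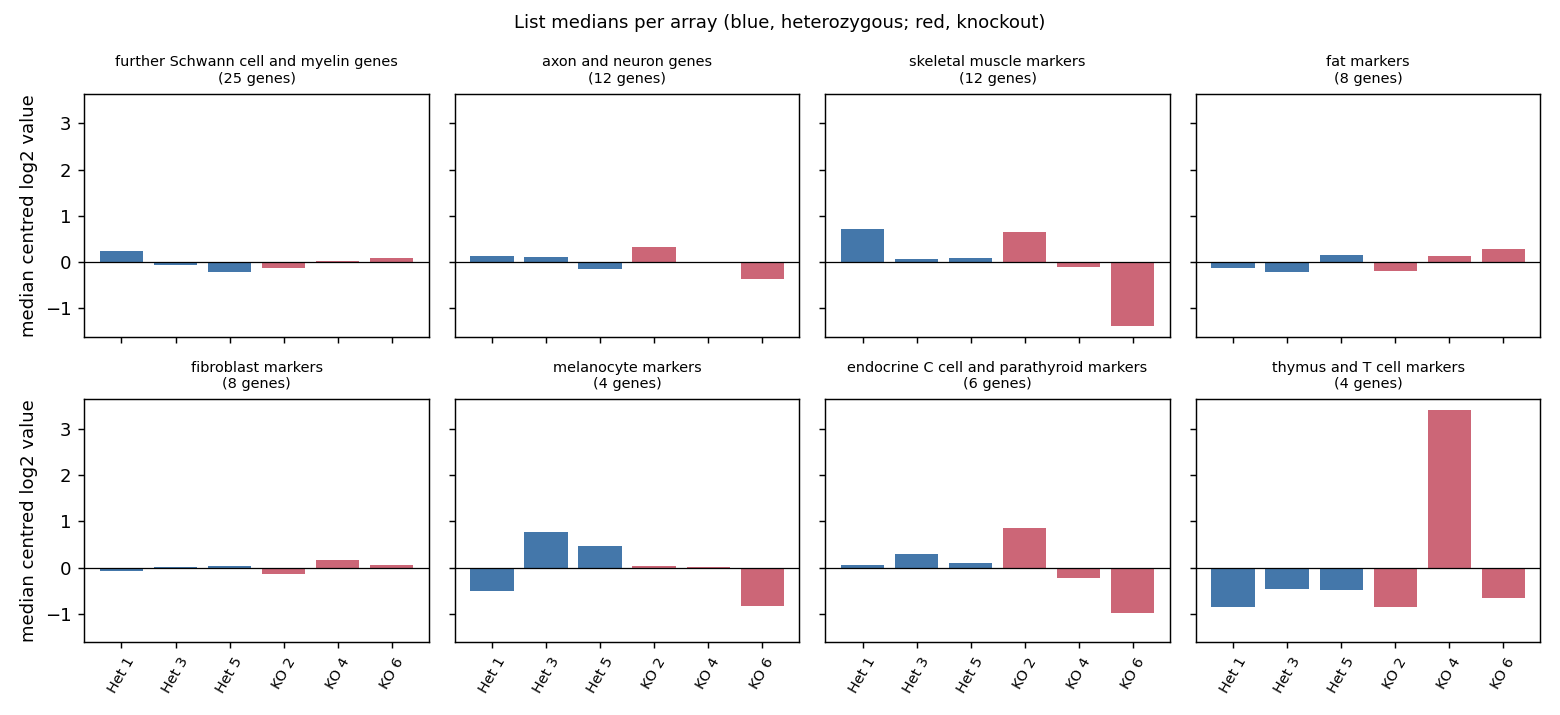
Median centred log2 value of 8 gene lists on each array (bars start at 0; blue heterozygous, red knockout; number of tested genes in the titles). The Schwann cell list median stays between -0.22 and 0.24, while the muscle list is at -1.38 on knockout 6 and the thymus list at 3.40 on knockout 4. A median does not show single genes: in the Schwann cell list Drp2 and Ugt8a range over 3.52 and 3.83 log2 units, while most of its genes vary less.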

How the data were processed

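The deposited values are linear array intensities, 1 per probe set and array, made with GCOS, the operating software of the array maker, per the submitters' processing notes; neither its version nor its settings are given in the sources used here. Per the labels' protocols, RNA was amplified by NuGEN's Ovation method. On every array the mean after trimming 2% at each end was 500.002, so the arrays had been scaled to a common mean, which would remove a shift of most transcripts. In the platform annotation 34958 of 45101 probe sets named a single gene, 932 more than 1 and 9211 no gene.

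Values were analysed as log2(signal + 16.7), the added value being the 25th percentile of all signals, which understates changes of dim genes. After removal of 64 control probe sets, the 27022 above the 40th percentile of mean log2 value (a signal of 43.5) were tested. The genotypes were compared in R 4.3.3 with limma 3.58.1 (lmFit, eBayes with an intensity trend), with Benjamini-Hochberg adjustment over all tested. The fit was checked on simulated data. Background is the brightest of 27 bacterial control probe sets. In list summaries each gene enters through its brightest tested probe set. The number of arrays limits the precision.

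The members and lists were chosen with earlier results of these data known. Genes named by rule were all members, set nerve and cell type markers, per list the 2 genes with the lowest unadjusted p, and the nearest 8 in array pattern. Other genes were chosen after their values were seen. Some listed genes were not analysed here. Alternatives changed the normalization, the added value, the filter, the variance model, the weights, the probe set per gene and the arrays kept.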

Additional observations from a re-analysis of the deposited data

How the results depend on the processing

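No paired analysis was possible because the groups share no sample numbers. Under every alternative run, 0 probe sets passed over all tested (limma) and 0 of the members, and without each array in turn both counts ranged from 0 to 0; the smallest adjusted p of the brightest probe set of any tested member was 0.959. The differences of L1cam (-0.32 to -0.23 without each array in turn) and Ncam1 (-0.39 to -0.0096) stayed below 0 under all alternatives. Others changed sign without an array, with ranges of -0.13 to 1.31 for Mbp, -0.20 to 0.33 for Sox10, -0.078 to 0.10 for Pmp22 and -0.18 to 0.0050 for S100b. Mbp turned without heterozygous 3, Sox10 without heterozygous 3 or knockout 4, Pmp22 without heterozygous 1 or knockout 6, and S100b without knockout 6. With array weights Pmp22 also turned, to 0.021, Sox10 moved from 0.059 to 0.38 and S100b from -0.12 to -0.069; the cause was not tested. Without each array in turn the list medians ranged from -0.17 to 0.03 for the members, -0.04 to 0.08 for the further Schwann cell genes, -0.28 to 0.07 for neuron genes, -0.0074 to 0.10 for lipid genes and -0.048 to 0.058 for the neuregulin and adhesion genes. With quantile normalization the Schwann cell median of knockout 6 moved from 0.078 to -0.044, and with cyclic loess to -0.0079; the cause was not tested. Some list medians also changed sign. Without a filter, neuron genes moved to 0.071 and the neuregulin and adhesion genes to 0.029. With cyclic loess the neuregulin and adhesion genes moved to 0.00097. The further Schwann cell genes moved to -0.0035 with 4 times the added value and to -0.014 with tested probe sets averaged per gene. Sox10 fell under the filter at the 60th percentile and has no value there. With Mbp alone in place of Mbp and Sox10, a setting chosen after seeing the data, the array profile moved from 0.50 to 1.05 on heterozygous 1, from -1.19 to -1.83 on heterozygous 3 and from 0.18 to -0.15 on heterozygous 5, and from 0.24 to 0.50 on knockout 6. Filtered-out probe sets of Mag, Sox10, Ncam1 and L1cam lay near or under background, which limits what can be said of them.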
